A study of Bos taurus with 16 samples.

Results

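Oocyte transcripts that were abundant in the mature oocyte and low before embryonic genome activation (EGA) were examined in bovine oocytes and embryos developed in vivo. They comprise 15 named loci whose value was 100 or more in both MII oocytes and whose values in all 2-cell (2C) and 4-cell (4C) embryos were at or below 25% of the lower oocyte value. They were 15 of the 1012 named loci with both oocyte values at 100 or more (1.48%), of 24820 named loci and of 27393 loci in all. The members were thus chosen by their MII, 2C and 4C values, so these levels are given as a description, with no test. Reads were still present on all 15 in both 2C embryos, so the transcripts were depleted on this scale and not absent.

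RNA-Seq was performed on 16 single oocytes and embryos, 2 at each of 8 stages. The stages were the in vivo matured MII oocyte, 2C, 4C, 8-cell (8C), 16-cell (16C), early morula (EM), compact morula (CM) and blastocyst (BL), all of Bos taurus. The labels name no treatment, breed or donor animal, and nothing says which embryos had the same parents, so p-values measure only the spread between these samples, which may be technical. The RNA of each oocyte or embryo was amplified in 2 rounds from its poly(A) tails, so the values are levels of polyadenylated RNA and total RNA was not measured.

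The oocyte stores RNA while it grows, and the embryo lives on this store after fertilization because its own genome is still largely silent. Stored transcripts lose their poly(A) tails, are translated or are degraded on different schedules. In cattle the major wave of transcription from the embryo's genome comes at around the 8-cell stage, and from then on a transcript can be a leftover of the oocyte or a new product of the embryo.

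Levels are scaled reads, that is read counts divided by a size factor for each sample. They are not divided by transcript length, so a locus is compared here between stages. Any ranking of loci by value is by reads and not by amount of transcript. Between 607672 and 3379426 reads were recovered per sample, and 1 read was worth 0.365 to 1.80 scaled reads. The detection floor of 3 reads lay between 1.09 and 5.40 scaled reads, a limit that covers counting error only. The Pearson correlation between replicates, across loci, was 0.715 to 0.933 and was lowest at 8C. At 8C the summed value of 10 oocyte markers was 41.4 in replicate 1 and 1778 in replicate 2, against 15543 and 24713 in MII oocytes. In a single embryo, fewer cells carrying a transcript and less of it per cell cannot be told apart.

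**Figure D1:**
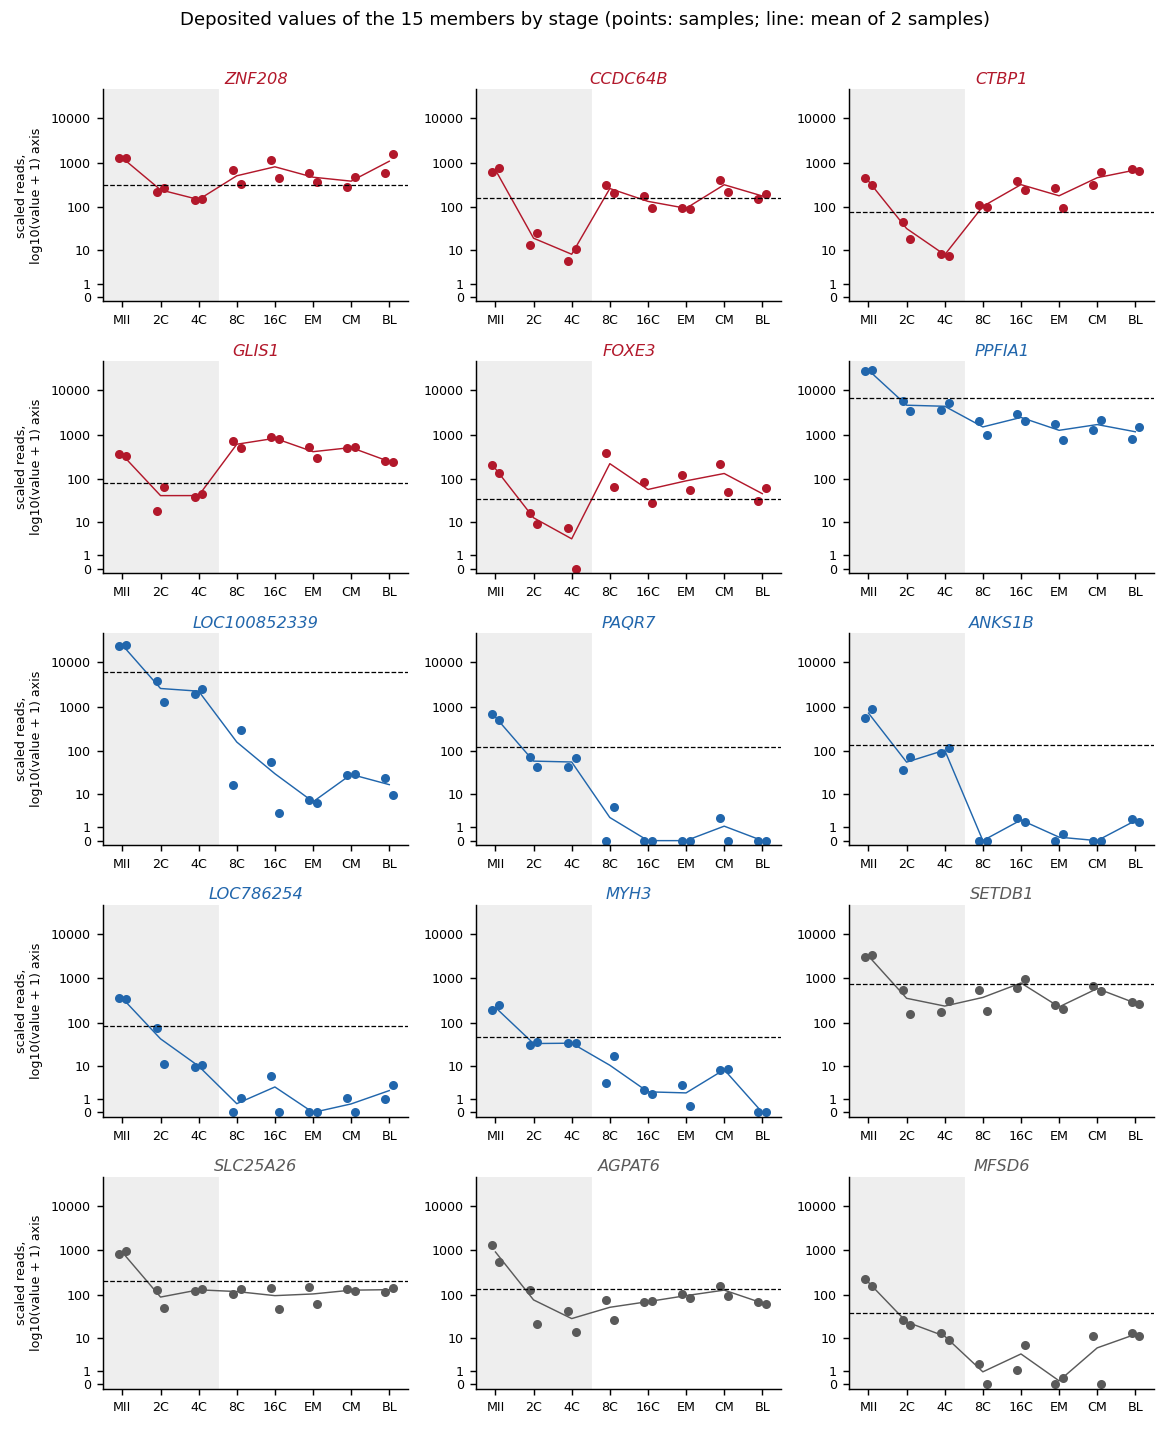
Scaled reads of the 15 members in each of the 16 samples, on a log10(value + 1) axis; points are samples, lines join the means of 2 samples, the dashed line is 25% of the lower MII value and the shaded stages chose the members. In the red panels (ZNF208, CCDC64B, CTBP1, GLIS1 and FOXE3) every sample from 8C on lies above the 2C and 4C samples, in the blue panels (PPFIA1, LOC100852339, PAQR7, ANKS1B, LOC786254 and MYH3) every one lies below them, and the grey panels (SETDB1, SLC25A26, AGPAT6 and MFSD6) do neither.

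In MII oocytes most of the members' reads lay on 2 loci. PPFIA1 encodes liprin-alpha-1, a scaffold protein of cell adhesion sites. Its value was 27011 and 28962 in the MII oocytes, 5756 and 3439 in 2C and 3591 and 5108 in 4C embryos. From 8C on it was lower again, with 1998 and 1001 at 8C, 2856 and 2038 at 16C, 1750 and 769 in EM, 1251 and 2135 in CM and 820 and 1518 in BL. No later sample reached the lowest 2C or 4C value, 3439, but none was near the floor either. LOC100852339, a locus to which no function is assigned here, went from 23327 and 24199 in MII to 3800 and 1292 in 2C and 1892 and 2541 in 4C. Its 10 later values had a median of 20.3 and lay between 3.23 and 304. The highest of these, 304, was in 8C replicate 2, the embryo with the high oocyte marker sum, while 8C replicate 1 had 16.2; the part of that embryo's oocyte markers in this value was not tested. Together the 15 members took 2.90% and 2.60% of all reads in MII oocytes, 0.449% to 0.920% in 2C and 4C embryos and 0.243% to 0.486% later. Without PPFIA1 and LOC100852339 the summed value was 10097 and 9825 in MII and 743 to 1386 in 2C and 4C embryos. It was 1280 to 3548 later, so the further fall of the pooled share was not shared by the other members as a sum.

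The regulators of chromatin and transcription among the members were SETDB1, ZNF208, GLIS1, CTBP1 and FOXE3. SETDB1 encodes an enzyme that trimethylates lysine 9 of histone H3 and so marks silent chromatin. Its value was 2966 and 3382 in MII, 558 and 159 in 2C and 175 and 305 in 4C. Later samples spanned the same range and went somewhat above it, with 562 and 188 at 8C, 595 and 986 at 16C, 258 and 202 in EM, 675 and 512 in CM and 293 and 266 in BL. Thus SETDB1 stayed below the MII values in every later sample, and 4 of the 10 later samples exceeded the highest 2C or 4C value.

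ZNF208 is named as a zinc finger gene, a class of DNA-binding proteins. The value of its locus was 1298 and 1287 in MII, 229 and 269 in 2C and 146 and 155 in 4C. All 10 later values were above these, from 293 in CM replicate 1 to 1577 in BL replicate 2, with a median of 537. The 2 blastocysts differed widely, at 609 and 1577, and only the second exceeded the MII values.

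GLIS1 encodes a Krüppel-like zinc finger factor of the oocyte, known for its use in reprogramming somatic cells. It had 380 and 327 scaled reads in MII, 18.2 and 66.8 in 2C and 39.7 and 45.5 in 4C. It then reached levels above the oocyte, with 730 and 498 at 8C, 875 and 794 at 16C, 530 and 305 in EM, 493 and 541 in CM and 258 and 244 in BL. Both samples at 8C, 16C and CM were above both MII oocytes, whereas both blastocysts were below them. The 16C mean was 835 ± 57.4 (SD, n = 2), which is 256% of the lower MII value.

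CTBP1 encodes a corepressor that binds DNA-bound repressors and recruits histone-modifying enzymes. Its value was 470 and 314 in MII, 46.7 and 19.3 in 2C and 8.30 and 7.31 in 4C. The low point was thus at 4C, with 9 reads in each embryo. It was 112 and 99.8 at 8C, 401 and 252 at 16C, 270 and 97.0 in EM, 318 and 615 in CM and 715 and 675 in BL. Both blastocysts exceeded both MII oocytes, and the BL mean of 695 ± 28.5 (SD, n = 2) was 222% of the lower MII value.

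FOXE3 encodes a forkhead transcription factor best known from the developing lens. Its MII values were 206 and 139, the lowest mean of the members, with 16.6 and 9.12 in 2C and 7.38 and 0 in 4C. The 0 in 4C replicate 2 allows up to 3 reads. At 8C its values were 382 and 67.7, and the later range was 29.1 to 382, with a median of 64.7. The samples of 1 stage were far apart for FOXE3, with 88.2 and 29.1 at 16C, 127 and 57.5 in EM, 219 and 50.7 in CM and 32.5 and 61.8 in BL.

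A second group serves membranes, transport and metabolism. SLC25A26 encodes the mitochondrial carrier of S-adenosylmethionine, the methyl donor of the cell. Its value was 827 and 966 in MII, 127 and 50.7 in 2C and 125 and 134 in 4C, and it stayed between 48.5 and 146 in the 10 later samples, with a median of 126. No later stage separated from the 2C and 4C embryos for this gene. AGPAT6, now named GPAT4, encodes a glycerol-3-phosphate acyltransferase that starts glycerolipid synthesis. The MII oocytes were far apart at 1291 and 539, and the 2C embryos likewise at 131 and 21.5, with 43.4 and 13.8 in 4C. Later values lay between 26.4 and 162, and only CM replicate 1 exceeded the highest 2C value.

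PAQR7 encodes membrane progesterone receptor alpha, which has been studied in the oocyte's response to progestins. It had 670 and 490 in MII, 74.4 and 44.2 in 2C and 43.4 and 69.8 in 4C. Of the 10 later samples, 8 were at 0, and the other two held 4.59 at 8C and 2.22 in CM. Those are 4 and 2 reads. MFSD6 encodes a membrane protein of the major facilitator superfamily. Its values were 223 and 157 in MII, 26.9 and 20.8 in 2C and 12.9 and 8.93 in 4C, and between 0 and 13.2 later. The 2 blastocysts held 13.2 and 11.1 and CM replicate 1 held 11.1, whereas the other seven later samples lay at or below 6.47.

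The remaining members encode structural and adaptor proteins or are unnamed. CCDC64B belongs to the BICD-related family of adaptors of the dynein motor, and its ratio was the lowest of all. It had 637 and 757 in MII, 13.5 and 25.9 in 2C and 5.53 and 10.6 in 4C, so that the highest early value was 4.07% of the lower MII value. All later samples were above this, with 317 and 217 at 8C, 177 and 97.0 at 16C, 96.6 and 94.6 in EM, 421 and 228 in CM and 158 and 204 in BL. The CM mean, the highest, was 325 ± 137 (SD, n = 2), or 51.0% of the lower MII value.

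ANKS1B encodes an ankyrin repeat and SAM domain protein known from the postsynaptic density of neurons. It had 561 and 870 in MII, 38.0 and 74.4 in 2C and 92.2 and 118 in 4C. In all 10 later samples it was under 3 reads, and in 5 of them it was at 0. MYH3, the embryonic myosin heavy chain of skeletal muscle, had 194 and 252 in MII, 31.7 and 36.1 in 2C and 35.1 and 34.1 in 4C. It was at most 17.2 later and at 0 in both blastocysts. MYH3 is one of a family of related genes, and how reads shared between them were counted is not given in the sources used here. LOC786254, to which no function is assigned here, had 373 and 344 in MII, 76.0 and 10.9 in 2C and 9.22 and 10.6 in 4C, and at most 5.44 later.

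**Figure D2:**
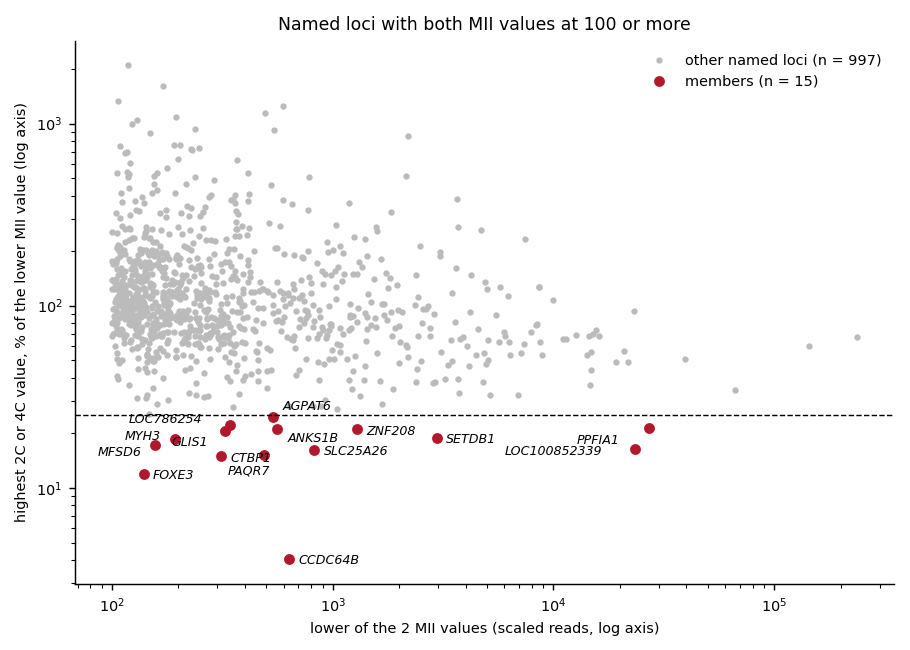
Each point is 1 of the 1012 named loci with both MII values at 100 or more, with the lower MII value in scaled reads against the highest 2C or 4C value in percent of it, both on log axes. The 15 members lie under the dashed line at 25% by construction, CCDC64B stands apart at 4.07%, and the 997 other loci have a median of 102%.

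The ratio of the highest 2C or 4C value to the lower MII value ran from 4.07% for CCDC64B and 11.9% for FOXE3 to 24.4% for AGPAT6. Between them CTBP1 had 14.9%, PAQR7 15.2%, SLC25A26 16.2%, LOC100852339 16.3%, MFSD6 17.1% and MYH3 18.6%. Just inside the limit were AGPAT6, LOC786254 (22.1%) and PPFIA1 (21.3%). Just outside it were ZNF177 (25.4%), LOC617476 (27.2%) and C13H20orf3 (27.6%), so the limit does not fall in a gap. The oocyte minimum does: the members nearest to it were FOXE3 (139), MFSD6 (157) and MYH3 (194), and the nearest named loci under it that met the ratio were TBL2 (37.2), COQ2 (36.9) and TRAPPC6B (33.2).

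The 2C mean was a median of 10.7% of the MII mean over the 15 members and the 4C mean 9.33%, against 57.2% and 48.0% over the 997 other oocyte-high loci. The levels were already low at the 2C stage, and both 2C embryos were above both 4C embryos in 6 members (background 27.0% of the 1012 loci). These were ZNF208, CCDC64B, LOC786254, CTBP1, MFSD6 and FOXE3. The opposite order was found for ANKS1B alone (background 18.5%), for which 4C embryos held 92.2 and 118 and 2C embryos 38.0 and 74.4. The 2C replicates were unequal, and replicate 1 was the higher one for 10 of the 15. Leaving out 2C replicate 1, the rule would take 55 loci, and leaving out MII replicate 1 or 2 it would take 47 or 40. Leaving out a sample can only loosen the rule, so the 15 members are among them by construction.

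The size of this difference depended on the scale. The deposited values of the MII oocytes summed to 2083061 and 2427145 and those of the 2C and 4C embryos to between 1188810 and 1328357. On the deposited scale the median log2 difference from MII over 2906 named loci with at least 20 scaled reads in both oocytes was -0.44 at 2C and -0.73 at 4C. With total reads as the scale these medians were 0.45 and 0.02. The members' 2C and 4C means became medians of 20.05% and 15.8% of the MII mean, and those of the other oocyte-high loci 107% and 82.1%. CCDC64B was then at 6.87%, FOXE3 at 24.3% and the other members between 26.8% for SLC25A26 and 49.7% for AGPAT6. With total reads as the scale only CCDC64B met the whole rule, since the lower MII value of FOXE3 came under 100, and with TMM scaling 13 members did. The order was less affected: 13 of the 15 members were among the 15 lowest ratios of the 1012 loci with total reads and 14 with TMM. This ranking used the MII, 2C and 4C values of the rule, rescaled by a factor per sample, so it tests nothing. The amount of RNA per embryo was not measured, so which scale is nearer to it cannot be told.

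**Figure D3:**
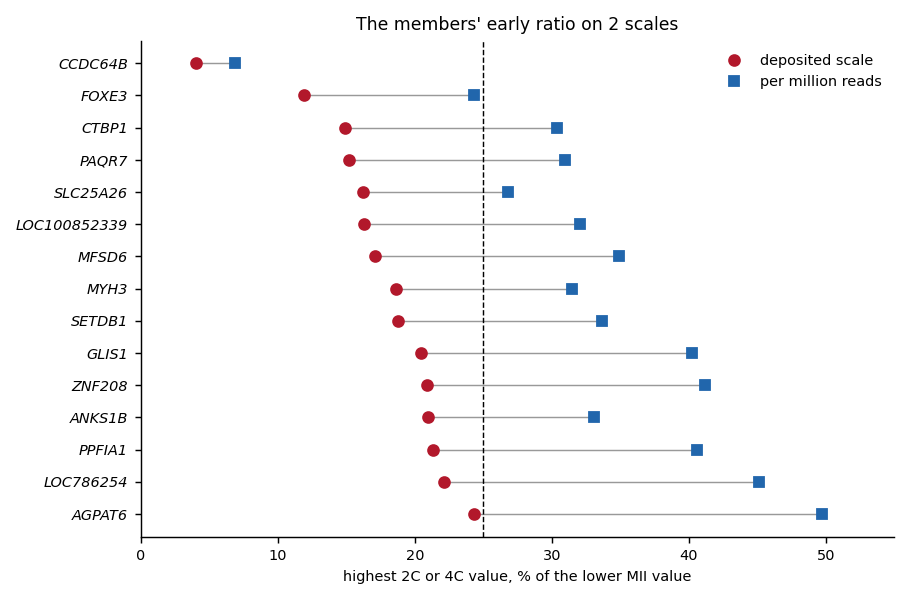
Highest 2C or 4C value of each member in percent of its lower MII value, on the deposited scale (red circles) and with total reads as the scale (blue squares); the dashed line is the limit of 25%. Every member moves to the right with total reads, and only CCDC64B, at 6.87%, and FOXE3, at 24.3%, stay to the left of the line.

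After EGA the members took different courses. In 5 of the 15, all 10 samples from 8C to BL were above all 2C and 4C samples: ZNF208, CCDC64B, CTBP1, GLIS1 and FOXE3. This order held for 5.14% of the 1012 oocyte-high loci. In 6, all 10 later samples were below all 2C and 4C samples: PPFIA1, LOC100852339, PAQR7, ANKS1B, LOC786254 and MYH3, where the background was 43.4%. SETDB1, SLC25A26, AGPAT6 and MFSD6 did neither. Low 2C and 4C values are part of the rule, which makes the first order easier and the second harder to meet, so the counts describe the members and test nothing. The same names were found with total reads, with TMM and without either 8C embryo. Both samples of a later stage were back at or above the lower MII value for GLIS1 and CTBP1 (2 of 15, background 22.5%). PAQR7, ANKS1B, LOC786254 and LOC100852339 were at or below 5% of the lower MII value in every later sample, 4 of 15 against 41 of the 997 other loci.

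**Figure D4:**
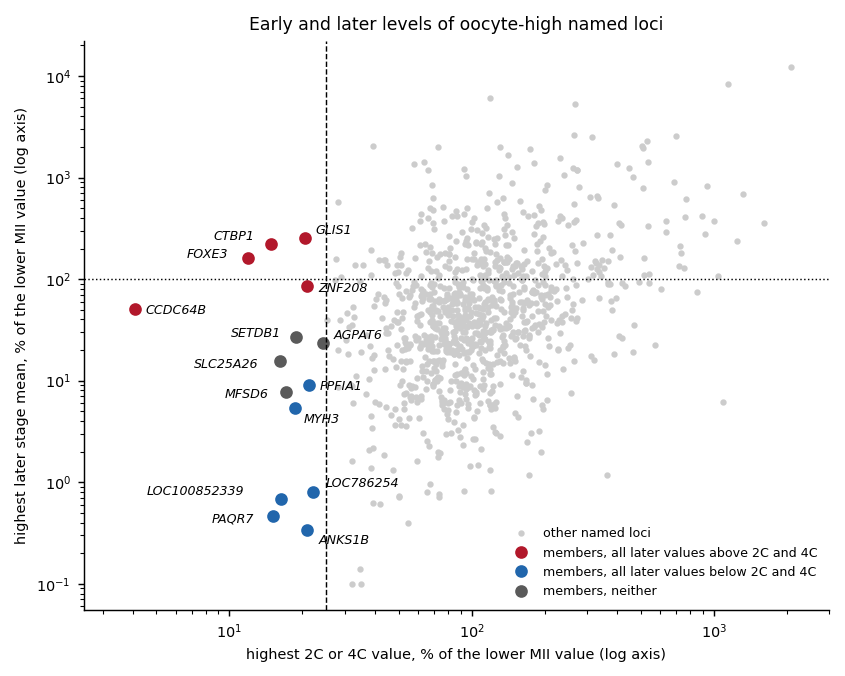
Highest 2C or 4C value (horizontal) and highest mean of a later stage (vertical), both in percent of the lower MII value on log axes, for the members and the 997 other oocyte-high loci (2 loci below 0.1% are drawn at 0.1%). GLIS1, CTBP1 and FOXE3 lie above the dotted line at 100%, and ANKS1B, PAQR7, LOC100852339 and LOC786254 lie below 1%.

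Differences among the stages from 8C to BL did not enter the rule and were tested. The test was limma with Benjamini-Hochberg adjustment on log2(scaled reads + 1), over 7665 loci of these 10 samples, and a fold on this scale understates the difference of low loci. Of the 15 members 11 passed the filter on low values. ANKS1B (7 reads in the 10 samples), PAQR7 (6), LOC786254 (10) and MYH3 (41) did not and were not tested. Between 8C and BL, 1 of the 11 members was called, against 9.28% of all loci. That member was CTBP1, which was higher in BL by 2.71 on the log2 scale (SE 0.56; limma, adjusted p = 0.0182). The 2 values at 8C, 112 and 99.8, did not overlap with those in BL, 715 and 675. Higher calls made up 5.64% and lower calls 3.64% of all loci (432 higher, 279 lower), and with total reads as the scale the split was 541 higher and 201 lower. On the recovered reads the balance was the other way, with 156 higher and 186 lower by edgeR and 305 higher and 390 lower by DESeq2. Without 8C replicate 2, BL replicate 1 or BL replicate 2 the log2 difference of CTBP1 was between 2.63 and 2.75, and it was not called. Each of these fits leaves 1 embryo in a compared stage, so the spread comes from the other stages.

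No member was called in the other comparisons by limma. The F test over the 5 stages called 0 of 11 members and 3.37% of all loci by limma. In that test CTBP1 had the lowest adjusted p (0.0625, limma), followed by GLIS1 (0.147), CCDC64B (0.149), SETDB1 (0.173) and MFSD6 (0.283). DESeq2 called 2 members among 959 of 7665 loci in it, CTBP1 (adjusted p = 0.00531) and LOC100852339 (adjusted p = 0.0123), and edgeR called 0 members among 281 loci. The highest later value of LOC100852339, 304, was in 8C replicate 2, the embryo with the high oocyte marker sum, against 16.2 in replicate 1.

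Between 8C and 16C, 0 of 11 members and 0.0% of all loci were called by limma. CTBP1 had the lowest adjusted p of the members and was 1.58 higher at 16C (SE 0.56, limma, adjusted p = 0.186). It was followed by SETDB1, 1.23 higher (SE 0.56, limma, adjusted p = 0.270). The SETDB1 difference was 2.02 without 8C replicate 1 and 0.45 without 8C replicate 2, so that the value rests on which 8C embryo is used. Between the 8C and 16C embryos and the morulae, 0 of 11 members and 0.0261% of all loci were called by limma. AGPAT6 had the lowest adjusted p of the members (0.93 higher in morulae, SE 0.40, limma, adjusted p = 0.384).

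Between morulae and blastocysts, 0 of 11 members and 8.75% of all loci were called by limma, 5.27% higher and 3.48% lower in BL. CTBP1 was 1.37 higher in BL (SE 0.48, limma, adjusted p = 0.102). It had the lowest adjusted p of the members, followed by MFSD6 (limma, adjusted p = 0.141). MFSD6 held 13 and 7 reads in the blastocysts, 10 in CM replicate 1 and at most 4 in the other later samples, so it passed the filter through blastocysts, the group in which it was higher, and its difference is not read as a result. For GLIS1, which had its highest values at 16C, the difference between 8C and BL was -1.26 (SE 0.46; limma, adjusted p = 0.104). The 8C values of 730 and 498 and the BL values of 258 and 244 did not overlap, yet this difference did not pass the threshold.

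The lists of genes with known maternal roles held 0 members, against 1.48% of all oocyte-high loci, and nothing is read from counts this small. Of 18 zona and oocyte secreted factors found, 2 were oocyte-high and 0 were members. Of 25 maternal effect genes 9 were oocyte-high and 0 were members, and the nearest was WEE2 at 34.6%. Of 40 genes of meiotic arrest and maturation 7 were oocyte-high, and of 27 genes of the meiotic chromosome axis 3, with 0 members in both. Of 63 genes of RNA clearance and translation control 12 were oocyte-high, with 0 members and a lowest ratio of 68.3% for DCP1A. SETDB1 was the only member among 14 oocyte-high histone variants and histone and DNA modifiers, whose median ratio was 83.4%. ZNF208 was the only one of 11 oocyte-high ZNF genes and SLC25A26 the only one of 14 oocyte-high solute carriers. The oocyte-high ribosomal protein genes (6) and respiratory chain genes (3) held 0 members. The zona protein gene ZP2 had 391 and 569 scaled reads in MII and 322 to 482 in 2C and 4C embryos. The sum of the 10 oocyte markers was lower in 2C (7716 and 5349) and 4C (4534 and 4102) than in MII (15543 and 24713). Single markers did not all share this order. GDF9 had 73.8 and 123 in MII and 71.2 to 119 in 2C and 4C. ZP3 had 0.923 and 9.57 in MII and 7.31 to 18.4 in 2C and 4C.

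Markers of other cell types were examined beside the members, and 0 members were on a marker list. The summed value of 24 markers of cumulus and granulosa cells, the cells that surround the oocyte, was 1405 to 2125 in MII, 1313 to 2153 in 2C and 2430 to 2686 in 4C. Among its 8 defining markers TNFAIP6, FOXL2 and CYP11A1 were at 0 in all of these samples, and HAS2, which makes the hyaluronan of the cumulus matrix, had 143 and 245 in MII and 98.1 to 367 in 2C and 4C. The aromatase gene CYP19A1 had 7.38 and 24.5 in MII and 7.12 to 32.3 in 2C and 4C. The receptor gene FSHR had 11.1 and 22.3 in MII and 1.82 to 6.46 in 2C and 4C, the direction of the members, and its part in their values was not tested. The sum of 9 blood cell markers was 11.7 to 32.3 in MII and 5.11 to 12.7 in 2C and 4C, with HBB and PTPRC at 0. The sum of 5 oviduct markers was 6.38 to 8.31 in MII, 2.92 to 89.4 in 2C and 3.69 to 8.12 in 4C. The highest of these, 89.4, was in 2C replicate 1. FOXJ1 was at 0 at these stages, and OVGP1 held 113 reads in 2C. All 5 sperm markers were at 0 in MII, 2C and 4C. Among the oocyte markers BMP15 was listed at 0 in every sample, while GDF9 had 73.8 and 123 in MII and 71.2 to 119 in 2C and 4C.

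A gene name often stood on several loci. For 11 members the name had 12 other loci, 3 of them at 0 in all samples. With both oocyte values at 20 or more there were 4, and 0 of these met the ratio of 25%. A second ANKS1B locus had 82.2 and 165 in MII, 10.3 to 31.7 in 2C and 4C and at most 3.04 later. A second ZNF208 locus had 72.9 and 88.3 in MII, 8.93 to 23.7 in 2C and 4C and 30.02 to 98.6 later, so that both loci of each of these names had both MII values above all 2C and 4C values and, from 8C on, the same order against them. A second PPFIA1 locus, at 228 and 289 in MII, had 73.9 to 121 in 2C and 4C. A second MFSD6 locus did not follow its member: it had 58.2 and 106 in MII and 23.6 to 83.0 in 2C and 4C. The loci carry no position or strand, so whether they share reads is not known.

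Of the 15 members 12 matched a RefSeq gene of assembly ARS-UCD2.0, 11 by symbol and 1 (AGPAT6) by an older name, and all 12 are protein-coding. LOC100852339, ZNF208 and CCDC64B found no match. Among these 12 no member neighboured another on the assembly, and the closest, GLIS1 and FOXE3, had 78 genes between them. Loci without a gene name were outside the rule, but 4 of them met its limits.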

How the data were processed

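RNA of single in vivo matured oocytes and embryos was amplified and sequenced on the SOLiD platform by the authors, whose processing notes name cutadapt, FastQC, TopHat, Cufflinks and HTSeq; versions, genome build and strand handling are not given in the sources used here. The deposited values are a signal per locus: read counts divided by a size factor per sample by the authors. Within a sample, values were multiples of the worth of 1 read (100% of values above 0, tolerance 0.01 reads), which gave the reads back.

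The 15 members follow a rule on MII, 2C and 4C values, and members and gene lists were chosen with earlier results of these data known. Named were the members with the highest oocyte values or lowest ratios, the called members, those nearest each limit, those on a list and those back at oocyte level; further names, and the other loci of member names, were chosen after their values were seen. Stages from 8C on were compared with limma 3.58.1 (R 4.3.3; empirical Bayes with trend, pseudocount 1, threshold 0.05, Benjamini-Hochberg adjustment over 7665 loci that passed edgeR's filterByExpr). Alternatives were pseudocounts 0.5 and 5, no filter, other scales, edgeR 4.0.16, DESeq2 1.42.0, all samples, a replicate block and leaving out each sample. The test was checked on simulated data.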

Additional observations from a re-analysis of the deposited data

Results flagged for a closer look

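In 7 of 30 groups of 4 samples (8C with 16C embryos, and EM with CM) 1 sample lay far from the others by Dixon's criterion. Its rate of about 1 in 20 groups is for normally distributed values of 1 population. These groups pool 2 stages, and a single value above 0 among zeros always meets the criterion. The 7 of 30 are therefore not set against that rate. For FOXE3 the flagged sample was 8C replicate 1 with 382 scaled reads (212 reads), where the others lay between 29.1 and 88.2. For MYH3 it was 8C replicate 2 with 17.2 (15 reads), against at most 3.60, and for PAQR7 the same embryo with 4.59 (4 reads), against 0; this embryo also has the high sum of oocyte markers, whose part was not tested. For MFSD6 it was CM replicate 1 with 11.1 (10 reads), against at most 0.391. The other three rest on 1 or 2 reads against 0: PAQR7 (2.22) and LOC786254 (1.11) in CM replicate 1 and ANKS1B (0.391) in EM replicate 2.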

How the results depend on the processing

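The number of members (15) was 37 with a limit of 33.3%, 2 with one of 12.5% and 1 with total reads as the scale. It was 15 to 55 when each of the 6 samples was left out in turn, which can only add loci. Lower or higher oocyte minimums, TMM and all locus names gave 12 to 19. The F test called 0 of 11 members (258 of 7665 loci). Pseudocount 5 gave 1 (507 of 7665 loci) and total reads 1 (342 of 7665 loci). DESeq2 gave 2 (959 of 7665 loci), and all 16 samples in the fit 2 of 15 (712 of 9670 loci). With all 16 samples 1 member, MYH3, was called between morulae and blastocysts, but it passed the filter there through the MII, 2C and 4C samples that chose it, so nothing is read from this call. Between 8C and BL 1 of 11 members was called, 2 of 11 with DESeq2 (695 of 7665 loci) and 2 of 15 with all 16 samples (974 of 9670 loci, MYH3 again included), and 0 to 2 when samples were left out, 2 of 12 without 8C replicate 1 (1184 of 9153 loci); between 8C and 16C leaving out samples gave 0 to 1. The cause of these changes was not tested. A fit without a sample leaves 1 embryo at that stage, and its p-values rest on the spread within the other stages. CTBP1 between 8C and BL was called in 16 of 19 alternatives, with adjusted p from 0.000982 to 0.162 over the limma, edgeR and DESeq2 fits, and no named difference reversed. Over all loci the calls ranged from 0 to 1184 between 8C and BL (711 in the main result), 2 to 1147 between morulae and BL (671), 0 to 959 in the F test (258), 0 to 565 between 8C and 16C (0) and 0 to 107 between 8C and 16C embryos and morulae (2). Replicate numbers did not pair the samples: correlations of same-numbered deviations lay between -0.11 and 0.16 over 10 pairs of groups. With a replicate block the members called were 1 between 8C and BL and 0 in the other comparisons, and all loci called between 8C and BL were 645. PAQR7, ANKS1B, LOC786254 and MYH3 held 6 to 41 reads in the 10 later samples together, too few for the filter.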

Other observations

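Of 30 relatives of the members, chosen after the members' values were seen, 29 were found, 2 were oocyte-high and 0 met the rule, which 1.48% of oocyte-high loci met. Of the genes related to SETDB1, EHMT1, another lysine 9 methyltransferase of histone H3, had 520 and 367 scaled reads in MII and 357 to 1054 in 2C and 4C embryos. SUV39H2, also such an enzyme, had 222 and 126 in MII and 67.1 to 101 in 2C and 4C. PAQR5, a progestin receptor gene of the PAQR7 family, had at most 26.6 in MII and 19.4 to 32.4 in 2C and 4C. MYH2, a neighbour of MYH3 in the myosin family, had 162 and 23.4 in MII and 57.0 to 268 in 2C and 4C. MYH9, a non-muscle myosin heavy chain, had 15.7 and 16.0 in MII, 36.9 to 136 in 2C and 4C and 476 to 6938 in the 8C and 16C embryos.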
